A study of Mus musculus with 2 samples.

Results

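The genes described here are the D-type cyclins Ccnd1, Ccnd2 and Ccnd3, the kinases Cdk4 and Cdk6, the CIP/KIP inhibitors Cdkn1a, Cdkn1b and Cdkn1c, and the INK4 inhibitors Cdkn2c and Cdkn2d. They were chosen by name, and all 10 were found among the 19595 genes of the deposited count table, each in 1 row. The series measured RNA from neural stem cells of the brain of ICR mice at embryonic day 13. The control group consists of a single library, psicor (genotype WT), and the knockdown group of a single library, sh1 (genotype KO). The title of the series names Ccdc25, a coiled-coil domain gene, which is taken here as the target. Both groups share the cell type, strain and stage. The labels do not say how the cells were grown or for how long the knockdown lasted. The design text speaks of triplicates, the table holds 1 count column per group, and whether a column pools cultures is not given in the sources used here.

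With 1 library per group there is no spread between replicates and no test. All comparisons are of these 2 libraries, and the 95% intervals cover counting error only. Levels are in CPM, the counts scaled to a common library size with edgeR's TMM factors, and the log2 fold is that of the knockdown over the control library after 0.5 was added to each count. The libraries held 16549682 and 16058407 counts, so that a floor of 3 counts is 0.178 and 0.190 CPM. Ccdc25 itself went from 32.8 CPM (control) to 26.1 CPM (knockdown), and the ratio was 0.794 (0.697 to 0.904). This is of ordinary size for these libraries, since 47.1% of the genes measured at a mean of 1 CPM or more lay closer to no change than its log2 fold of -0.33.

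D-type cyclins bind CDK4 or CDK6 in G1 and start the phosphorylation of the retinoblastoma protein, which releases E2F factors and opens the way to S phase. INK4 proteins bind CDK4 and CDK6 and keep cyclins away from them. CIP/KIP proteins bind cyclin-CDK complexes, block CDK2 and can also help cyclin D-CDK4 complexes to form. In the developing brain, D cyclins and CDK inhibitors take part in the choice of a progenitor between another division and leaving the cell cycle.

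The 10 genes did not shift as a block. Cdkn1c, an imprinted inhibitor linked to cell cycle exit, was 5.27-fold higher in the knockdown library, and Cdk6 was the furthest below its control level, with a ratio of 0.428. These 2 genes were past 2-fold, as were 15.4% of all genes measured at a mean of 1 CPM or more. The other 8 genes lay within 2-fold, Ccnd2 and Cdkn2d being the lowest of them and Cdk4 and Cdkn1b the highest. The genes of each of the 4 classes differed in direction or size, so the make-up of each class differed between the libraries.

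The sequences before the start sites are shown for 2 pairs of genes that encode proteins of like function and lay on opposite sides of their control levels. These are Cdk4 with Cdk6 and Cdkn1b with Cdkn1a. RefSeq's table for GRCm38.p6 matched 7 of the 10 genes, with 10 windows of 250 bases before a start. Ccnd1, Ccnd2 and Cdkn1c had no window and were not searched. Only the longest stretch free of GENCODE M21 exons is printed, 5′ to 3′ on the gene's strand, and capitals mark the motifs searched. Cdk4, chr10:127063285-127063533, plus strand, is given first, followed by Cdk6, chr5:3343789-3343892, Cdkn1b, chr6:134920151-134920400, and Cdkn1a, chr17:29090729-29090975, all on the plus strand.
Cdk4: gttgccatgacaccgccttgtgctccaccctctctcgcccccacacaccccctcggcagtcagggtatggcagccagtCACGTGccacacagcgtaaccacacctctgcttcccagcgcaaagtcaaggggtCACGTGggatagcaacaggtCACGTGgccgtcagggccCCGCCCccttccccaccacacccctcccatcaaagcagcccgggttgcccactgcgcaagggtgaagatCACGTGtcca
Cdk6: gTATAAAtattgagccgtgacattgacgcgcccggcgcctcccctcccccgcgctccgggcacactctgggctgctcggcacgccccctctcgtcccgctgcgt
Cdkn1b: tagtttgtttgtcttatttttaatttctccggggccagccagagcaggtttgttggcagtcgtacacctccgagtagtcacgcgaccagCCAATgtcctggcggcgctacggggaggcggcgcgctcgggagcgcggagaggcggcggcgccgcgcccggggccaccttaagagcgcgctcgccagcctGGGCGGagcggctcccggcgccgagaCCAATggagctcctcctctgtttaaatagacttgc
Cdkn1a: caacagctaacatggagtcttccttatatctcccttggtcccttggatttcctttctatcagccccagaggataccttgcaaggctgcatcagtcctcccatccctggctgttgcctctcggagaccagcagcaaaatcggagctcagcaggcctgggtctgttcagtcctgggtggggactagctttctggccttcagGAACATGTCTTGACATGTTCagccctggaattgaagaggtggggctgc

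The Cdk4 window holds the E-box CACGTG, the site class bound by MYC, MAX and MXD proteins, at 4 positions, which begin 172, 118, 98 and 11 bases before the start, and the GC-box CCGCCC at 80 bases. At least 1 CACGTG was present in 6.02% of the 32851 windows of this length in the table, and at least 4 were present in 7 windows (0.0213%). The number 4 is the count in the Cdk4 window itself, so this share describes that window and tests nothing. The Cdk6 window of 250 bases holds CACGTG at 220 bases, outside the printed stretch, and TATAAA, found in 12.4% of windows, at 103 bases before the start. The Cdkn1b window holds CCAAT at 161 and 35 bases and GGGCGG, a GC-box, at 61 bases before the start. CCAAT occurred in 33.8% and GGGCGG in 32.7% of windows, each searched on both strands. In the printed Cdkn1a window the capitals mark a match to the p53 full-site consensus with at most 1 mismatch, starting 51 bases before that window's start site. This search was chosen after the sequence had been seen, and 25 windows (0.0761%) hold such a match. Another Cdkn1a window, chr17:29093519-29093768, precedes a start further downstream and was not printed because it lies wholly in exons. It holds GGGCGG at 104 and 46 bases before its start and no p53 match. The E2F sites TTTCCCGC and TTTGGCGC, the CRE TGACGTCA and the STAT site TTCNNNGAA were also searched on both strands. They were not found in the 10 windows of the 7 genes that had one. The FOXO site TGTTTAC was found in 1 of these windows, upstream of Ccnd3. The motifs overlap with no other motif in the printed stretches. A match is a run of letters and not a measured binding site.

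Among the D-type cyclins, Ccnd2 accounted for most of the difference. Ccnd2 (ENSMUSG00000000184, chromosome 6, 127125162 to 127152193, minus strand) encodes cyclin D2, which is prominent in cortical progenitors. The control library held 7301 Ccnd2 counts and the knockdown library 4445, which are 433 and 282 CPM. The ratio was 0.651 (0.627 to 0.675) and the log2 fold -0.62. Ccnd1 (ENSMUSG00000070348, chromosome 7, 144929931 to 144939925, minus strand) encodes cyclin D1, a target of mitogen signalling. Its counts were 4387 and 3861, or 260 and 245 CPM, and its ratio was 0.940 (0.900 to 0.982). Ccnd3 (ENSMUSG00000034165, chromosome 17, 47505051 to 47599691, plus strand) encodes cyclin D3, which is widely expressed in differentiating tissues. Its counts were 1467 and 1566, or 87.1 and 99.3 CPM, with a ratio of 1.14 (1.06 to 1.23). The knockdown library was thus clearly low for Ccnd2, slightly low for Ccnd1 and slightly high for Ccnd3.

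The summed D-type cyclin counts were 13155 and 9872, a ratio of 0.802 (0.781 to 0.823). A ratio between 2 genes of the same library does not depend on library scaling, and the change of that ratio between libraries does not depend on gene length either. The change is given with a Woolf 95% interval. All 8 such ratios within the classes were computed. The ratio of Ccnd1 to Ccnd2 counts was 1.45 times as high in the knockdown library (1.37 to 1.53), that of Ccnd3 to Ccnd2 was 1.75 times as high (1.62 to 1.90) and that of Ccnd3 to Ccnd1 1.21 times (1.12 to 1.32). Levels of different genes were compared per kilobase of the longest GENCODE M21 transcript. On that scale Ccnd1 made up 43.3% of the D-type cyclin level (control) and 48.2% (knockdown), Ccnd2 42.6% and 32.8%, and Ccnd3 14.05% and 18.96%. With all exons of a gene merged as its length, the share of Ccnd3 was 8.92% and 12.13%. Ccnd1 and Ccnd2 stood level in the control, with 69.6 and 68.4 CPM per kilobase and overlapping counting intervals, and at 65.5 and 44.5 CPM per kilobase in the knockdown library.

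The kinases moved apart. Cdk4 (ENSMUSG00000006728, chromosome 10, 127063534 to 127067920, plus strand), a partner kinase of the D-type cyclins and the gene whose upstream sequence carries the repeated CACGTG, had 10101 and 13150 counts. These are 599 and 834 CPM, and the ratio was 1.39 (1.36 to 1.43). Cdk6 (ENSMUSG00000040274, chromosome 5, 3341485 to 3531008, plus strand), the other partner kinase, had 846 and 339 counts, or 50.2 and 21.5 CPM. Its ratio was 0.428 (0.376 to 0.486) and its log2 fold -1.22. The knockdown library was high for Cdk4 and low for Cdk6. Cdk4 was the most abundant of the 10 genes per kilobase in both libraries, and Cdk6 the least abundant in the knockdown library. The ratio of Cdk4 to Cdk6 per kilobase was 67.0 (control) and 218 (knockdown), 3.25 times as high (2.86 to 3.69). Summed over both kinases the ratio of counts was 1.32 (1.28 to 1.35), and Cdk4 held 98.5% and 99.5% of the level per kilobase.

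**Figure D1:**
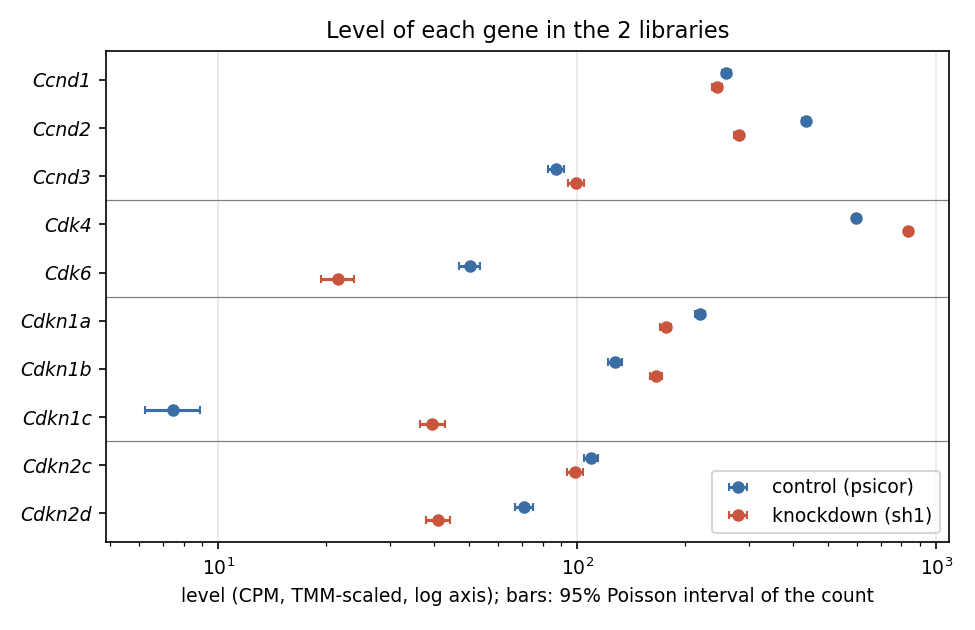
Level of each gene in CPM (x axis, log scale) in the control and the knockdown library, with bars for the 95% Poisson interval of the count and lines between the 4 classes. Cdkn1c stands far to the right of its control level, Cdk6 to the left, and the other 8 genes stand nearer to their control levels.

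Among the CIP/KIP inhibitors, Cdkn1c and Cdkn1b were higher and Cdkn1a was lower in the knockdown library. Cdkn1c (ENSMUSG00000037664, chromosome 7, 143458339 to 143461050, minus strand) encodes the inhibitor p57 and is expressed from the maternal allele. Its counts of 126 and 622, or 7.48 and 39.4 CPM, gave a ratio of 5.27 (4.35 to 6.44) and a log2 fold of 2.39. Cdkn1b (ENSMUSG00000003031, chromosome 6, 134920401 to 134925513, plus strand) encodes p27, an inhibitor that accumulates in cells leaving the cycle. Its 2145 and 2613 counts, or 127 and 166 CPM, gave a ratio of 1.30 (1.23 to 1.38). Cdkn1a (ENSMUSG00000023067, chromosome 17, 29090979 to 29100722, plus strand) encodes p21, a target of p53. Its 3712 and 2778 counts, or 220 and 176 CPM, gave a ratio of 0.800 (0.761 to 0.840). The knockdown library was high for the first and second of these genes and low for Cdkn1a.

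The opposite differences left the summed CIP/KIP counts nearly level, at 5983 and 6013, a ratio of 1.07 (1.04 to 1.11), or 1.03 for levels per kilobase. Per kilobase, Cdkn1a made up 76.9% of the class (control) and 59.7% (knockdown), Cdkn1b 20.3% and 25.7%, and Cdkn1c 2.85% and 14.6%. The ratio of Cdkn1c to Cdkn1a counts was 6.60 times as high in the knockdown library (5.41 to 8.04), that of Cdkn1c to Cdkn1b 4.05 times (3.32 to 4.95) and that of Cdkn1b to Cdkn1a 1.63 times (1.51 to 1.76). In the control library Cdkn1c was the least abundant of the 10 genes, at 3.93 CPM per kilobase, with an interval that overlapped that of Cdk6 at 4.36. With merged exons as the length the order of these 2 genes turned, at 3.67 for Cdkn1c and 3.59 for Cdk6. In the knockdown library it stood at 20.7 CPM per kilobase, between Ccnd3 at 25.7 and Cdk6 at 1.87, and with merged exons it stood above Ccnd3, at 19.3 and 11.3.

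Both INK4 inhibitors were lower in the knockdown library. Cdkn2d (ENSMUSG00000096472, chromosome 9, 21288410 to 21291407, minus strand) encodes p19, which is kept on in neurons after the last division. With 1196 and 645 counts, or 71.0 and 40.9 CPM, its ratio was 0.576 (0.523 to 0.635) and its log2 fold -0.79. Cdkn2c (ENSMUSG00000028551, chromosome 4, 109660876 to 109667189, minus strand) encodes p18, which is expressed in dividing progenitors. With 1839 and 1557 counts, or 109 and 98.7 CPM, its ratio was 0.905 (0.845 to 0.968). The difference was thus mostly in Cdkn2d. The class sum had a ratio of 0.775 (0.734 to 0.819), and the ratio of Cdkn2c to Cdkn2d was 1.57 times as high in the knockdown library (1.40 to 1.77). Cdkn2d stood above Cdkn2c per kilobase in the control, at 49.9 and 44.2 CPM per kilobase, and below it in the knockdown library, at 28.7 and 40.0.

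**Figure D2:**
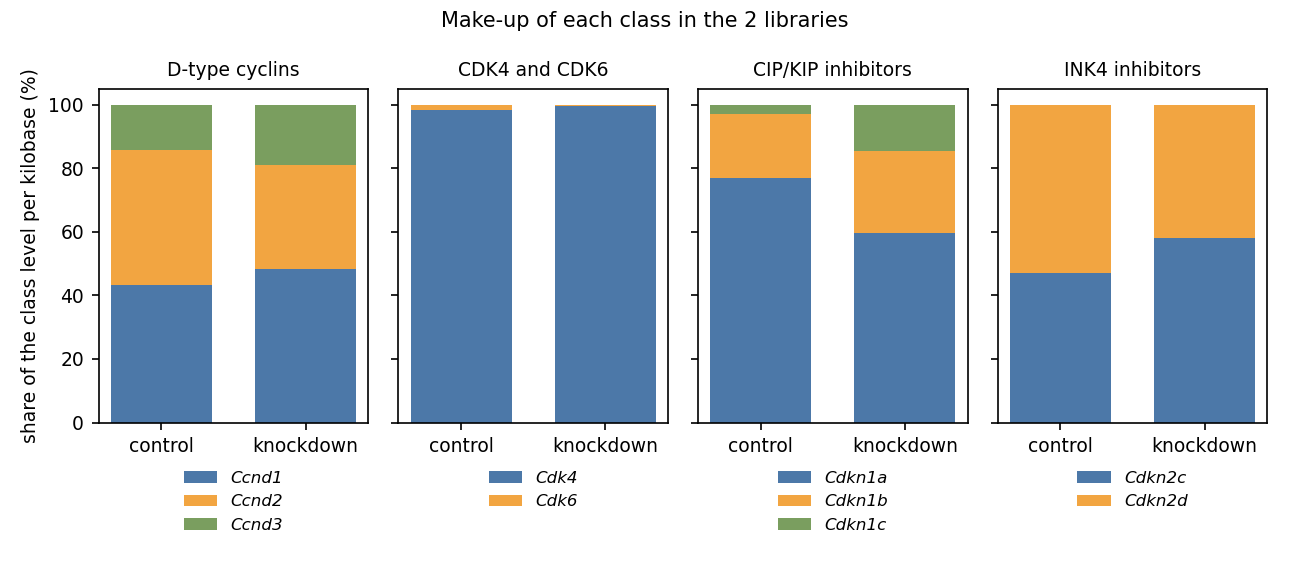
Share of each gene in the level per kilobase of its class (y axis, percent) in the control and the knockdown library, one panel per class. The Ccnd2, Cdkn1a and Cdkn2d segments are smaller in the knockdown library, and the Cdkn1c segment goes from 2.85% to 14.6%.

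Set against all genes, most of these differences were of ordinary size. Of the 14158 genes that passed the minimum mean of 1 CPM, which include all 10 described here, 7.64% were at least 2-fold higher and 7.76% at least 2-fold lower in the knockdown library. The 10 genes gave 1 in each direction. At 1.5-fold, 1 was higher and 3 were lower (Cdk6, Cdkn2d and Ccnd2), beside 16% and 15.7% of all genes, or 31.6% in either direction. At any size, 4 were above and 6 below their control level, beside 49.7% and 50.3% of all genes. Their median log2 fold was -0.12, beside -0.0042 over all genes, and their median absolute log2 fold was 0.43, beside 0.36. The counts of the 10 genes are thus near the background and say nothing particular to them.

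Single genes differed in where they stood. Cdkn1c had a higher log2 fold than 98.7% of all genes past the minimum, and only 5.52% had a lower one than Cdk6. Cdkn2d had 10.7% of genes below it and Ccnd2 14.6%, while 80.3% lay below Cdk4. The absolute log2 fold of Ccnd1 was larger than that of 14.5% of genes. Ccnd1, Ccnd2 and Cdk4 were nevertheless among the more abundant RNAs, with mean levels above 95.3%, 97.2% and 99.1% of the genes past the minimum. The interval of the ratio lay to one side of 1 for all 10 genes, which speaks of depth and not of the spread between cultures.

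**Figure D3:**
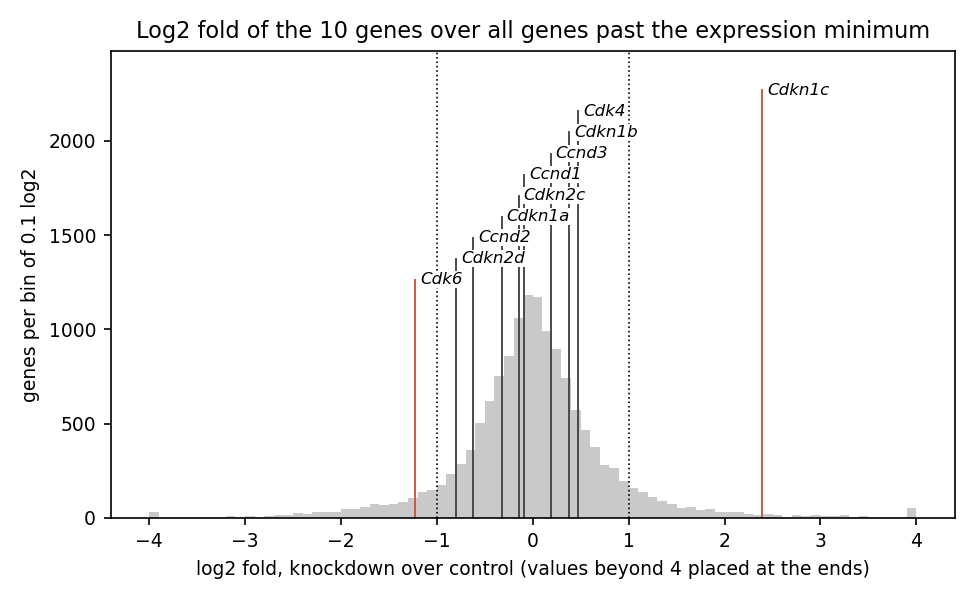
Number of genes (y axis) by log2 fold of knockdown over control (x axis, bins of 0.1) for the 14158 genes past the minimum, with a line for each of the 10 genes. Only Cdk6 at -1.22 and Cdkn1c at 2.39 lie beyond the dotted lines at 2-fold.

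The genes with levels most like those of Cdkn1c, measured as the Euclidean distance in log2 CPM over the 2 libraries, were Fam189a2 (0.21), Lhfpl3 (0.22) and Txnip (0.23). Txnip stood at 6.82 and 44.9 CPM, Lhfpl3 at 8.49 and 42.7 CPM and Fam189a2 at 7.65 and 45.5 CPM. With 2 libraries such a likeness says only that both levels are close.

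The surrounding pathway was described by 13 lists, 139 of whose genes passed the minimum. The next step after the D-type cyclins, the G1/S group with CDK2, was lower in each of its 5 genes and within 2-fold in all, with a median log2 fold of -0.47. Ccne1, which encodes cyclin E1, went from 36.9 to 20.0 CPM (0.543, 0.473 to 0.623), and Ccna2, which encodes cyclin A2, from 149 to 81.9 CPM (0.548, 0.512 to 0.586), where the brackets give the ratio and its interval. Ccne2 had a log2 fold of -0.47 and Cdk2 one of -0.21. The kinase that activates CDKs had 2 subunits above and 1 below the control level, with Mnat1 at a log2 fold of 0.65, Cdk7 at 0.38 and Ccnh at -0.075.

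Among the pocket proteins, the substrates of cyclin D-CDK4/6, Rb1 went from 30.0 to 39.3 CPM, with a ratio of 1.31 (1.16 to 1.47). Rbl1, which is made mainly in cycling cells, went from 30.2 to 20.0 CPM, with a ratio of 0.663 (0.575 to 0.765). Rbl2, the pocket protein of resting cells, had a ratio of 1.15 (0.968 to 1.37), whose interval includes 1. Of the 10 E2F and DP genes, 8 were below and 2 above the control level and none reached 2-fold, with a median log2 fold of -0.23. The furthest were E2f7 at -0.93, E2f8 at -0.64, E2f1 at -0.59 and Tfdp1 at -0.39. E2f4 and E2f5, the E2F factors that pair with pocket proteins in resting cells, had log2 folds of -0.069 and 0.23, named here after their values were seen.

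All 19 E2F target genes of S phase entry were below their control level, 2 of them by 2-fold or more, and their median log2 fold was -0.67. Tyms, which makes thymidylate, had a ratio of 0.415 (0.372 to 0.463), Cdc6, a licensing factor, had a ratio of 0.466 (0.400 to 0.542), and Tk1 and Pola1 had log2 folds of -0.86 each. All 10 mitotic cyclins and markers of dividing cells were lower as well and within 2-fold, with a median of -0.71, and 1 of them was past 2-fold after removal of the length and GC trend. Aurkb had a log2 fold of -0.92, Ccnf -0.91, Cdk1 -0.84 and Top2a -0.80. The S phase and mitotic genes of these libraries were known to be lower before the lists were drawn up. Cdk4, Ccnd3, Cdkn1b and Cdkn1c lay on the other side of their control level from the genes of both lists. Ccnd1, at -0.089, lay next to the smallest difference of the S phase genes, -0.11 (Mybl2). The interval of Mybl2 holds the ratio of Ccnd1, 0.940, so the counts do not settle the order of these genes.

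**Figure D4:**
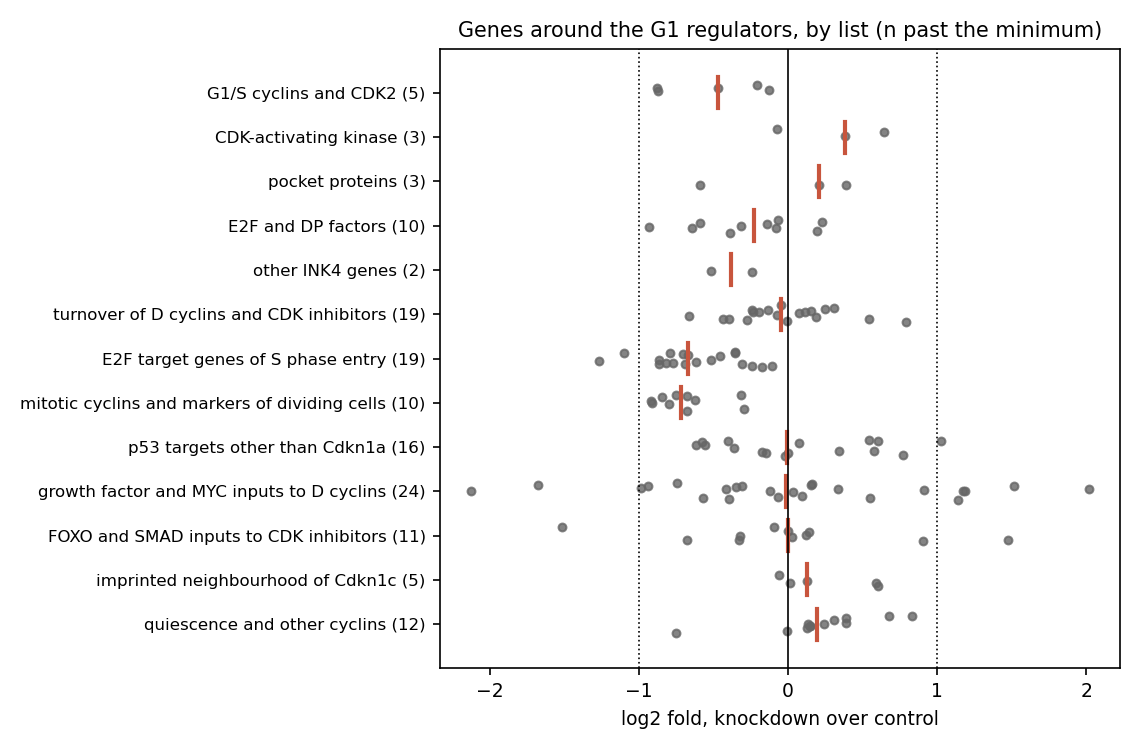
Log2 fold of knockdown over control (x axis) of each gene past the minimum in 13 lists (rows, n in brackets), with a red bar at each list's median and dotted lines at 2-fold. The S phase and mitotic lists lie wholly below 0, with medians of -0.67 and -0.71, while the p53, MYC and FOXO lists spread to both sides.

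The remaining INK4 genes were lower too, with Cdkn2b at a log2 fold of -0.51 and Cdkn2a at -0.24. Cdkn2a encodes p16 and, from another reading frame, ARF, which gene counts do not separate. Genes that degrade or stabilise D cyclins and CDK inhibitors showed no common direction, with 8 of 19 above and 11 below the control level, none at 2-fold and a median of -0.044. The furthest were Rnf123, a ubiquitin ligase for p27, at 0.79, Cks1b, a cofactor of p27 degradation, at -0.66, Fbxl12 at 0.55 and Cdc20 at -0.44. Skp2, the F-box protein for p27, had 73 and 58 counts and a ratio of 0.849 (0.591 to 1.22), and was named after its value was seen.

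The p53 targets other than Cdkn1a were divided evenly, 8 above and 8 below, with 1 at least 2-fold higher, 0 lower and a median log2 fold of -0.0089. Sesn1, the gene past 2-fold, had a log2 fold of 1.03, and with total counts or the authors' CPM 0 genes of the list were past 2-fold. Gadd45a had a log2 fold of 0.77, Trp53inp1 one of 0.60 and Ckap2, which is also a gene of dividing cells, one of -0.61. Mdm2, the feedback ligase of p53, stood at 51.9 CPM in both libraries, named after its value was seen.

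The list of growth factor and MYC inputs to D cyclins held 5 of 24 genes at least 2-fold higher and 2 at least 2-fold lower. Over all genes past the minimum these shares were 7.64% and 7.76%. The list had 12 genes on each side of the control level and a median of -0.017. Among the 5 higher genes were the growth factor receptors Fgfr3 (log2 fold 1.17) and Fgfr2 (1.14), named after their values were seen. Egr1 (log2 fold -2.12) and Fos (-1.67), early genes of mitogen signalling, were the lowest. Mxd4 went from 43.8 to 177 CPM (4.05, 3.73 to 4.39), and Mxi1 from 27.0 to 77.0 CPM (2.85, 2.56 to 3.18). Both encode proteins known to pair with MAX on sites of the class CACGTG and to act as repressors in place of MYC. The other genes of that network were named after their values were seen. Myc stood at 154 and 147 CPM (log2 fold -0.064), Mycn had a log2 fold of -0.75, Mycl 1.19 and Max 0.55. Cdk4, with its 4 CACGTG, was higher in the same library, and Cdk6, with CACGTG at 220 bases before its start, was lower. No binding was measured here, and a link between these genes was not tested.

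Among the FOXO and SMAD inputs to CDK inhibitors, Foxo4 had a log2 fold of 1.47 and Foxo3 0.91, Tgfb1 was at -1.51 with 62 and 20 counts and Tgfbr2 at -0.68. In all 1 of 11 was at least 2-fold higher, 1 was lower and the median was -0.0009. The imprinted neighbourhood of Cdkn1c was a list of 9 genes, of which Kcnq1, Phlda2 and Slc22a18 have no row in the deposited counts and could not be compared. None of the 5 genes past the minimum reached 2-fold. Their median was 0.12, or 0.49 after removal of the trend with length and GC content. Kcnq1ot1, the antisense RNA that silences Cdkn1c on the paternal chromosome, had 173 and 163 counts, a ratio of 1.01 (0.808 to 1.25), and was named after its value was seen. Osbpl5 and Cd81 had log2 folds of 0.60 and 0.59, Tssc4 0.12 and Nap1l4 -0.059, beside 2.39 for Cdkn1c. Of the 12 genes of quiescence and other cyclins, 10 were above the control level and none reached 2-fold, with Ccndbp1, a binding partner of D cyclins, at 0.83, Cdkn3 at -0.75, Btg1 at 0.68 and Ccnk at 0.39.

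Markers of several cell types differed between the libraries beside these genes, and their part in the values above was not tested. In bulk RNA, fewer cells of a type and less RNA per cell cannot be told apart. All 12 neural stem cell and radial glia markers were detected (11 of 12 higher, 2 by at least 2-fold). Their summed level was 6888 CPM (control) and 9022 CPM (knockdown). Neuron markers, 11 of 11 past the minimum and 9 of them at least 2-fold lower, summed to 2773 and 1188 CPM. Astrocyte markers summed to 463 and 1713 CPM (7 of 7 higher, 4 by at least 2-fold) and oligodendrocyte markers to 2926 and 4710 CPM (8 of 9 higher, 6 by at least 2-fold). Mesenchymal markers summed to 332 and 40.9 CPM, with 6 of 6 past the minimum at least 2-fold lower and Lum at 0 in the knockdown library. Microglia markers summed to 6.71 and 1.46 CPM, with Csf1r, Cx3cr1, C1qb and Ptprc at 0 in the knockdown library. Endothelial and pericyte markers summed to 3.98 and 6.72 CPM, with Cdh5 at 0 in the knockdown library. They had no common direction. Of the 2 past the minimum, Pdgfrb (19 and 81 counts) was at least 2-fold higher and Kdr (25 and 9 counts) at least 2-fold lower. Both were named after their values were seen. Erythroid markers summed to 0.415 and 0.380 CPM.

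In GENCODE M21, the exons of 7 of the 10 genes overlap those of an opposite-strand gene, and whether counting used strand is not given in the sources used here, so their exact values are uncertain. Cdkn1c shares 625 bases with Gm44732 and Cdk6 shares 368 with Gm17590, both antisense genes. Cdk4 shares 641 bases with Tspan31, which had 1564 and 1817 counts, and Ccnd1 shares 1100 with LTO1, which had 342 and 353. Ccnd3 shares 361 bases with Bysl, which had 1310 and 1030 counts. Cdkn1a shares 273 with AC167363.2, and Ccnd2 shares 368 and 372 with a pair of antisense genes. Cdkn1b, Cdkn2c and Cdkn2d share none. Near-identical stretches on the same strand were found for Ccnd3 in the pseudogene Ccnd3-ps, with 7 and 0 counts, and for Cdk6 in Gm16505. The exons of 48 pathway genes also overlap another gene's, among them Ccne2, Ccna2, Rb1, Rbl2, Rnf123, Fbxl12, Mxd4, Mxi1 and Gadd45a.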

How the data were processed

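The authors deposited 1 table with raw counts per gene for the control and the knockdown library, per the file headers. They also deposited CPM values, a ratio of these (fold change), its log2 and a p-value with an adjusted p-value whose test is not named. HTSeq 0.6.0, TopHat2 2.0.12, Bowtie2 2.2.3 and the mm9 build are listed, per the submitters' processing notes. Of 19595 gene IDs, 19557 are in GENCODE M21 (GRCm38), and for 18241 of these, 9 of the 10 members among them, the deposited start and end are the same bases as there. Positions are therefore read as GRCm38 and printed as deposited. The deposited adjusted p-values lie below the unadjusted ones for 11417 genes and were not used.

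The deposited counts were scaled and compared with edgeR 4.0.16 (TMM factors) and Python 3.11.15. The minimum was a mean of 1 CPM over both libraries. No test across genes was made with 1 library per group. Ratios carry an exact conditional binomial (Clopper-Pearson) 95% interval, and PCR copies are not independent molecules. Named genes are the 10 members, Ccdc25, up to 4 genes per list by absolute log2 fold, and the 3 coding genes nearest to Cdkn1c, with other genes marked in the text where named after their values were seen. The members and lists were chosen with earlier results of these data known. The calculation was run on simulated Poisson counts, which hold counting error only and cannot show how it fares with spread between cultures. Near-identical transcripts were sought with BLAST 2.17.0 (90% identity over 250 bases). Alternatives were DESeq2 1.42.0 size factors, total counts, the authors' CPM, 10 CPM or nothing as the minimum, 1.5-fold, a prior of 5 counts, removal of the trend with length and GC content, merged exons as the length, and leaving out genes with shared exons.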

Additional observations from a re-analysis of the deposited data

How the results depend on the processing

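No paired analysis was possible because each group has 1 library, and no library could be left out. The log2 folds of all 10 genes kept their direction under 5 alternatives, the smallest being Ccnd1 at -0.14 to -0.088, and Cdkn1c ranged from 2.27 to 2.38 and Cdk6 from -1.28 to -1.01, the last after removal of the length and GC trend. Total counts and the authors' CPM moved the summed log2 ratio to -0.37 for D-type cyclins, 0.34 for CDK4 and CDK6 and 0.051 for CIP/KIP inhibitors (0.050691 and 0.050814), all in the main direction; they shift the median of all genes by -0.053. At 1.5-fold, 3 of the 10 genes were lower. Without the genes that share exons, 0 were past 2-fold in either direction, since Cdkn1c and Cdk6 are then left out. Over all genes, the counts past 2-fold (1082 higher, 1098 lower) were 2286 and 2475 without a minimum, 500 and 496 at 10 CPM, and 2259 and 2218 at 1.5-fold. The median of the MYC list turned to 0.031 without a minimum and at 10 CPM, and that of the FOXO list to 0.014 at 10 CPM. With merged exons as the length, Ccnd1 exceeded Ccnd2 in the control already (49.7% and 41.4% of the class), Ccnd3 held 8.92% and 12.13%, and Cdkn1c changed places with Cdk6 in the control and with Ccnd3 in the knockdown library. Removal of the length and GC trend took several log2 folds outside their counting intervals. These were Cdk6, Ccnd2 (-0.55), Cdk4 (0.37), Cdkn1a (-0.43), Cdkn1b (0.47) and Cdkn2c (-0.26), while Ccnd3, at 0.12, stayed within its interval. Cdk4 was also outside its interval, at 0.42, with total counts and the authors' CPM. The trend's removal moved the median of the G1/S list to -0.31 and that of the imprinted neighbourhood of Cdkn1c to 0.49. The single p53 target at least 2-fold higher was within 2-fold with total counts and the authors' CPM (0 genes), and at 10 CPM no gene of the FOXO list (0) was 2-fold lower. Depth does not limit the 10 genes, the lowest count being 126; the spread between cultures is unknown.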
